A study of Mus musculus with 90 samples.

Results

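Chronic social stress (CSS) was compared with control (ctrl) in CA1, the field of the hippocampus whose pyramidal neurons carry its main output. Every area of interest (AOI) labelled CA1 was used, which gave 18 of the 90 AOIs of the series. The stressed animals were 6 CSS mice with 10 AOIs, and the controls were 4 ctrl mice with 8 AOIs. RNA was counted in formalin-fixed, paraffin-embedded sections of brain by GeoMx Digital Spatial Profiling, using probes of the mouse Whole Transcriptome Atlas panel, where light releases RNA-bound probes from a chosen part of a section and the released probes are sequenced. Matching areas were placed in each animal, per the series design, and every AOI carried a label of high or low p16. The p16 protein, encoded by Cdkn2a, halts the cell cycle and is used as a marker of senescent cells. The title of the series concerns such cells after social stress. Of the CSS mice, 4 had both a p16 high and a p16 low CA1 AOI, mouse 1169 had p16 high alone and mouse 1170 had p16 low alone, while all 4 ctrl mice had both. How p16 status was set, the strain, genotype, sex and age of the mice, and the form and length of the stress were not stated in those sources that were used.

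Social stress raises circulating glucocorticoids, steroid hormones that bind the glucocorticoid receptor (Nr3c1) and, with higher affinity, the mineralocorticoid receptor (Nr3c2). CA1 neurons carry both receptors, which enter the nucleus and turn on targets such as Fkbp5, a co-chaperone that dampens the receptor in return. Activity of the same neurons switches on immediate early genes, among them Fos and Npas4, which encode transcription factors that act within minutes to hours.

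The CA1 label was checked against markers of the hippocampal fields. Of 12 CA1 pyramidal neuron markers, 10 were higher in CA1 than in CA3 in all 10 mice, and none was lower in all of them. Wfs1 averaged a signal of 287 in CA1 AOIs, against 23.2 in CA3 and 22.4 in cortex, and Fibcd1 averaged 354 in CA1, against 24.0 in CA3 and 19.6 in cortex. The exceptions were Lefty1, at 20.5 in CA1 and 16.2 in CA3, and Dcn, at 12.9 in CA1 and 13.3 in CA3. Of 11 CA3 markers, 9 were lower in CA1 than in CA3 in all 10 mice, such as Cpne4 at 17.4 in CA1 against 212 in CA3. The AOIs labelled CA1 therefore carried the defining transcripts of that field.

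**Figure D1:**
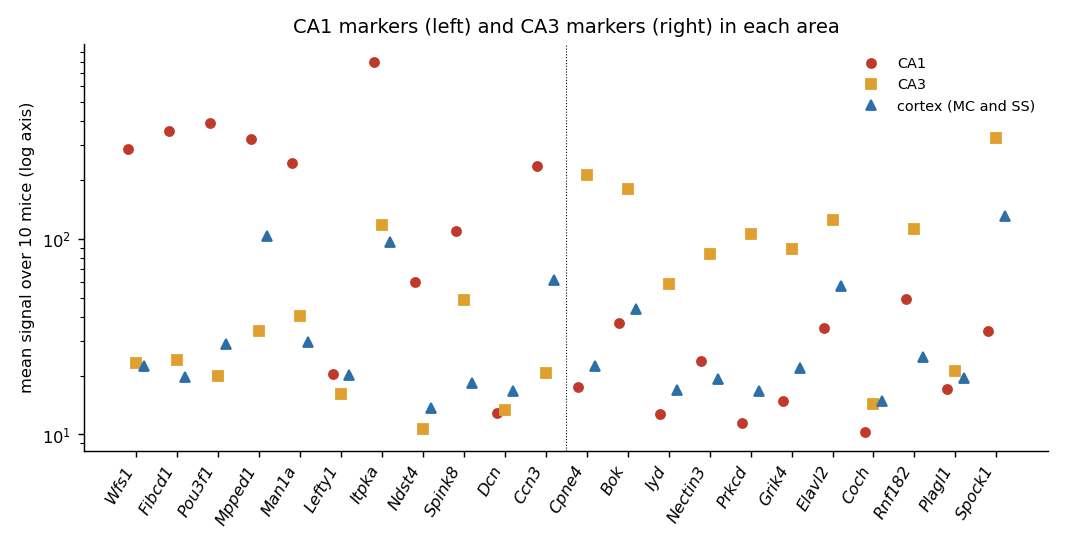
Mean signal over 10 mice (log axis) of 11 of the 12 CA1 markers, left of the dotted line, and 11 CA3 markers, right of it, in AOIs of CA1, CA3 and cortex. All CA1 markers shown but Lefty1 and Dcn stand above CA3 in every mouse, Wfs1 at 287 in CA1 against 23.2 in CA3.

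CA1 AOIs held 243610 to 832054 recovered probe counts, with a median of 6 to 23 counts per gene. CSS mice had 476739 ± 162509 counts per AOI (SD, n = 6), against 650554 ± 197348 in ctrl mice (SD, n = 4; exact 2-sided permutation p = 0.181, where the smallest possible p was 0.00476). The median gene was 1.71 ± 0.10 times as high as the negative probe in CSS mice (SD, n = 6) and 1.69 ± 0.25 times as high in ctrl mice (SD, n = 4; exact permutation p = 0.948). The negative probe, which binds no transcript, read 10.8 to 16.04 in CA1 AOIs. Ctrl mouse 1175 had the lowest signal over background, at 1.40 times, and ctrl mouse 1182 the highest, at 1.97 times, so that the 2 ends of this measure lay in the ctrl group. CSS mouse 1163 and ctrl mouse 1182 were the shallowest of their groups, with 277774 and 354684 counts per AOI.

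No gene passed limma for CSS against ctrl mice in CA1, which does not show that the groups were alike. It called 0 of 19962 genes (0% at a Benjamini-Hochberg adjusted p under 0.05), and the lowest adjusted p was 0.999985, so every gene difference below is a value that did not pass limma. At an unadjusted p under 0.05, 166 genes were higher in CSS mice (0.832%) and 402 were lower (2.01%), together 2.85% of the genes. These counts moved with single mice and with the scaling: 816 genes were lower without ctrl mouse 1175, 82 were higher without ctrl mouse 1182, and quantile normalization gave 435 higher and 382 lower. Every CSS mouse lay above every ctrl mouse in 39 genes (0.195%) and below every ctrl mouse in 67 genes (0.336%). edgeR's quasi-likelihood test on the recovered counts, summed per mouse, called 3 genes at an adjusted p under 0.05, of which 2 were higher and 1 lower in CSS mice, and it had 275 higher and 354 lower genes at an unadjusted p under 0.05. Leaving out each of the 10 mice in turn, Ptgds and Gm11596 were each still called 9 times and Slc13a5 7 times. edgeR called 1 gene without CSS mouse 1157 and 5 without ctrl mouse 1151.

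The data could have shown only fairly large differences. In the 4991 genes with the highest signal, above 44.8, the median 95% interval of a difference reached 0.37 to either side on the log2 scale, or 1.29-fold. In the 4991 genes with the lowest signal, below 15.0, it reached 0.60 to either side, or 1.52-fold. These intervals are for single genes and are not adjusted for the 19962 genes tested, so a call needed a larger difference. Ptgds, at a mean signal of 72.7 and 1.78-fold, did not pass limma. Of the genes at an unadjusted p under 0.05, 11 higher and 14 lower ones lay among those with the highest signal, against 54 higher and 125 lower ones among those with the lowest. The median difference over all genes was -0.04, with 41.8% of genes above 0. It was -0.002, with 49.3% above 0, under quantile normalization, 0.003 without ctrl mouse 1151 and -0.09 without ctrl mouse 1175, so the lean to lower values moved with the scaling and with single mice.

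**Figure D2:**
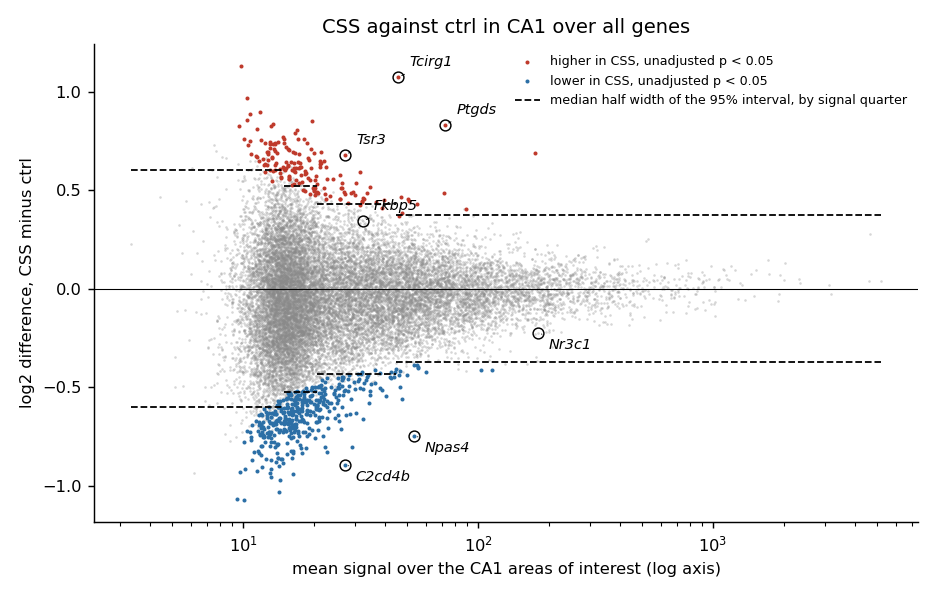
Log2 difference (CSS minus ctrl) of each gene in CA1 against its mean signal over the CA1 AOIs (log axis). Red points are the 166 genes higher and blue points the 402 genes lower in CSS mice at an unadjusted p under 0.05, circles mark named genes, and dashed lines give how far the median 95% interval reached to either side in 4 bands of signal, 0.60 in the lowest and 0.37 in the highest.

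Npas4, a transcription factor that neuronal activity induces and that adjusts inhibitory synapses, had the lowest unadjusted p among the 8145 genes with a mean signal at least 2 times the negative probe. Its signal in CSS mice was 22.1 at the lowest, 44.4 at the median and 53.8 at the highest, against 71.2, 52.2, 69.9 and 81.1 in the 4 ctrl mice. All CSS mice lay below 3 of the ctrl mice, and CSS mouse 1170, at 53.8, lay just above ctrl mouse 1168, at 52.2. The log2 difference was -0.75 (SE 0.20, 95% interval -1.15 to -0.34, limma adjusted p = 0.999985), which is 0.597 times the ctrl level. In edgeR it was -0.64, with an adjusted p of 0.149. The difference was -1.02 (SE 0.25) over p16 high AOIs alone and -0.54 (SE 0.23) over p16 low AOIs alone. In a bulk area of this kind, fewer cells of a type and less RNA per cell cannot be told apart.

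Npas4 lies on mouse chromosome 19, at 4984353 to 5003439 on GRCm38.p6, the reference release of the mm10 build, a span that covers all of its RefSeq transcripts. The 250 bases before a RefSeq start of the gene inside that span, chr19:4989972-4990221 on the minus strand of GRCm38.p6, are shown because Npas4 led the comparison. Capitals mark TGACG, the core of the cAMP response element through which activity reaches many immediate early genes, on either strand.
Npas4 promoter: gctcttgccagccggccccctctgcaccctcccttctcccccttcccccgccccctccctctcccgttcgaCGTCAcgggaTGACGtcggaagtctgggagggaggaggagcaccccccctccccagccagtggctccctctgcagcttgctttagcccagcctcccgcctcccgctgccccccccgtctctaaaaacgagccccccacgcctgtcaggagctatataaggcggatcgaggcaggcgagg
The window held 2 matches, 1 on each strand, which began 179 and 169 bases before the start and did not overlap. Of 32851 RefSeq promoter windows of this length, 17.8% held at least 1 match on either strand. It held no match to the AP-1 site TGACTCA or to ACANNNTGT, the core of the glucocorticoid response element, on either strand.

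Of 24 measured immediate early genes, Npas4 included, 10 lay above and 14 below 0, none was called, and the median was -0.06 against -0.04 over all genes. Fos, a subunit of the AP-1 factor, read 16.8 at the lowest, 35.1 at the median and 38.9 at the highest in CSS mice, against 63.1, 43.4, 29.0 and 30.9 in ctrl mice. The groups overlapped, the highest value belonged to ctrl mouse 1151, and the difference was -0.38 (SE 0.22, 95% interval -0.83 to 0.07). Btg2, which restrains proliferation, differed by -0.40 (SE 0.24), and Ier2, a nuclear protein induced by growth factors, by -0.43 (SE 0.27). Without ctrl mouse 1151 the median of the list was 0.07, so its sign rested on that mouse.

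Ptgds had the second lowest unadjusted p of the same 8145 genes. It encodes prostaglandin D synthase of the lipocalin type, a secreted enzyme made in the brain by the leptomeninges, the choroid plexus and oligodendrocytes. Its signal was 37.1 at the lowest, 78.8 at the median and 151 at the highest in CSS mice, against 23.3, 32.8, 55.7 and 72.2 in ctrl mice. The groups overlapped, since CSS mice 1152, 1163 and 1169 lay below ctrl mouse 1182. The log2 difference was 0.83 (SE 0.25, 95% interval 0.34 to 1.33, limma adjusted p = 0.999985), or 1.78-fold. edgeR gave 1.06 with an adjusted p of 2.35e-07. Without CSS mouse 1157, which held the highest AOI at a signal of 214, the edgeR adjusted p was 0.126, and without single mice the edgeR difference ran from 0.76 to 1.37. Ptgds differed by 1.37 (SE 0.28) over p16 high AOIs alone and by 0.43 (SE 0.29) over p16 low AOIs alone, and it did not pass limma in either.

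The 250 bases before a RefSeq start of Ptgds, chr2:25469750-25469999 on the minus strand of GRCm38.p6, are shown beside those of Npas4 because Ptgds was the leading gene in the other direction. That start lies inside the span of the gene, 25466709 to 25470110. Capitals mark the AP-1 site TGACTCA.
Ptgds promoter: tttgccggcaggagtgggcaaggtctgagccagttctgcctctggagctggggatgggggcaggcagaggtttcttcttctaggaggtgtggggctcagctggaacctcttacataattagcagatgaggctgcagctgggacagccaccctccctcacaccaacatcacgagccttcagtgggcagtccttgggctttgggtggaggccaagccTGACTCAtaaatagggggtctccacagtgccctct
This window held 1 match, which began 35 bases before the start, and 4.46% of the 32851 windows held at least 1 on either strand. TGACG and ACANNNTGT had no match in it, and they occurred in 17.8% and 5.84% of all windows.

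Markers of oligodendrocytes, the myelin-forming cells and a source of Ptgds, lay mostly above 0 as well. Of 17 measured, 15 were above and 2 below 0, none was called, and the median difference was 0.20 against -0.04 over all genes. Their summed signal ran from 471 to 860 in CSS mice, with a median of 630, against 505 to 662 in ctrl mice, with a median of 509. The highest sum belonged to CSS mouse 1170, at 860, and the lowest to CSS mouse 1163, at 471. Olig1, a transcription factor of the lineage, read 26.4 at the lowest, 35.3 at the median and 69.6 at the highest in CSS mice, against 28.1, 29.1, 26.6 and 23.4 in ctrl mice. Its difference was 0.45 (SE 0.22), and 0.25 without CSS mouse 1170. Mal, a myelin protein, differed by 0.53 (SE 0.28), while Olig2, the sister factor of Olig1, differed by -0.37 (SE 0.22). Over 24 other settings the median of the list stayed above 0, between 0.09 and 0.34, and it was 0.12 without CSS mouse 1170. Choroid plexus markers, another source of Ptgds, had a summed signal of 215 to 241 in CSS mice and 224 to 269 in ctrl mice, with 9 of 12 below 0. Whether the content of such cells had a part in the Ptgds difference was not tested.

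Neither receptor for stress hormones passed the test. Nr3c1 read 130 at the lowest, 168 at the median and 197 at the highest in CSS mice, against 226, 187, 131 and 237 in ctrl mice. The groups overlapped over most of that span, and the difference was -0.22 (SE 0.18, 95% interval -0.59 to 0.14). Nr3c2 read 173 at the lowest, 242 at the median and 292 at the highest in CSS mice, against 308, 206, 145 and 272 in ctrl mice. Its difference was 0.09 (SE 0.19, 95% interval -0.30 to 0.47), and it was -0.14 over p16 high AOIs and 0.35 over p16 low AOIs alone.

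Fkbp5 read 27.5 at the lowest, 34.9 at the median and 47.4 at the highest in CSS mice, against 34.1, 24.8, 27.6 and 25.9 in ctrl mice. The 3 highest values belonged to CSS mice and the next to ctrl mouse 1151. The difference was 0.34 (SE 0.20, 95% interval -0.07 to 0.75), or 1.27-fold, and it stayed above 0 in all 24 other settings. Tsc22d3, which encodes the anti-inflammatory protein GILZ, read 28.6 to 46.5 in CSS mice and 25.1 to 42.7 in ctrl mice, a difference of -0.01 (SE 0.20, 95% interval -0.42 to 0.39). Sgk1, a kinase that regulates ion transport, read 32.3 to 49.4 in CSS mice and 36.8 to 47.2 in ctrl mice, a difference of 0.07 (SE 0.19, 95% interval -0.30 to 0.45). Nfkbia, an inhibitor of NF-κB, differed by 0.49 (SE 0.25), and Arl4d, a small GTPase, by -0.45 (SE 0.24). Both had a mean signal under 2 times the negative probe. Nfkbia differed by 1.21 (SE 0.31) over p16 high AOIs alone and by -0.23 (SE 0.28) over p16 low AOIs alone. Of the 28 glucocorticoid receptors and targets listed, 17 lay above and 11 below 0, none was called, and the median was 0.06. That median was below 0 in 3 of 24 other settings, to -0.09 without ctrl mice 1175 and 1182.

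**Figure D3:**
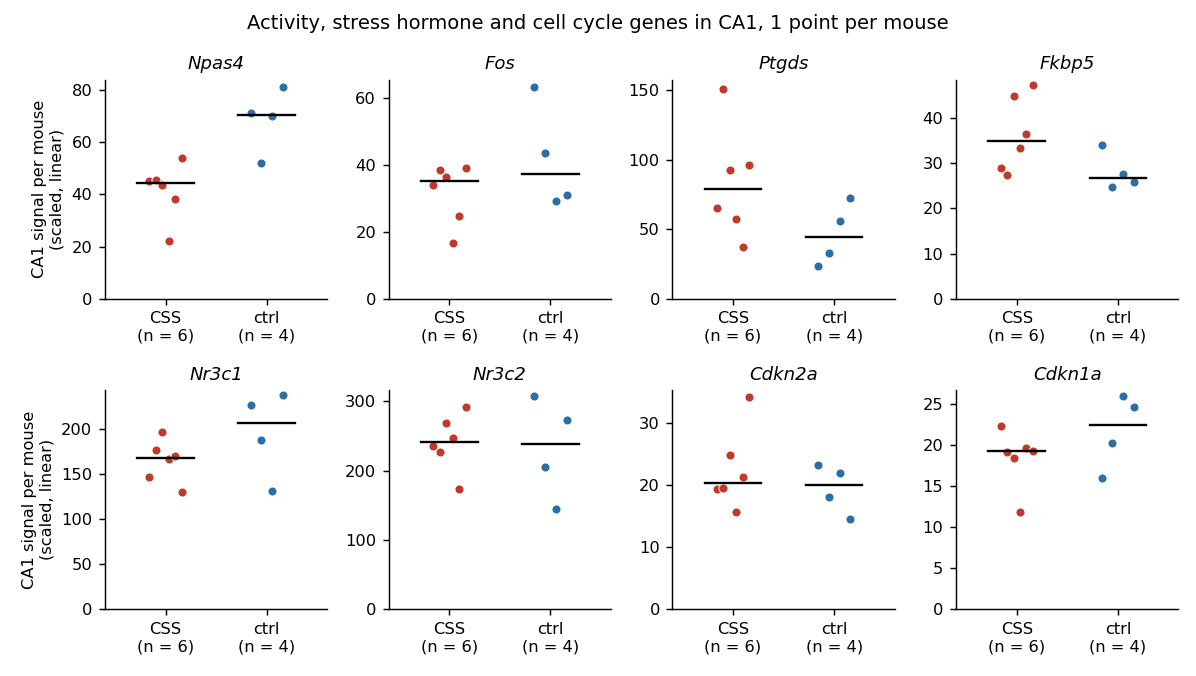
Signal per mouse in CA1 (linear axis from 0) of Npas4, Fos, Ptgds, Fkbp5, Nr3c1, Nr3c2, Cdkn2a and Cdkn1a. Each point is 1 mouse, with 6 CSS mice left of 4 ctrl mice and a bar at the group median, and the groups overlap in every panel, for Npas4 by 1 mouse of each group.

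The Cdkn2a signal is that of the whole gene and does not tell its transcripts apart, that of p16 among them. Cdkn2a read 15.7 at the lowest, 20.4 at the median and 34.3 at the highest in CSS mice. In ctrl mice it read 23.2, 18.1, 22.0 and 14.6. The highest value belonged to CSS mouse 1170, whose single AOI was p16 low, and the others overlapped. The difference was 0.18 (SE 0.23, 95% interval -0.29 to 0.65), and 0.05 without that mouse. The counts behind it were 3 to 24 per AOI, and its interval holds 0 as well as differences as large as 0.65. Cdkn1a, which encodes p21, read 11.8 to 22.4 in CSS mice, with a median of 19.2, against 15.95, 20.2, 25.9 and 24.7 in ctrl mice. Its difference was -0.22 (SE 0.24, 95% interval -0.69 to 0.25).

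Of 18 senescence genes and cell cycle inhibitors, 5 lay above and 13 below 0, with a median of -0.07. Cdkn2d, which encodes the inhibitor p19, differed by 0.32 (SE 0.18) and Cdkn1c, which encodes p57, by -0.34 (SE 0.26). Of 37 factors that senescent cells secrete, 16 lay above and 21 below 0, with a median of -0.03. Il15 averaged 7.54 in CSS mice and 15.4 in ctrl mice (log2 difference -0.94, SE 0.35), and Il6 averaged 9.61 in CSS mice and 16.5 in ctrl mice (-0.72, SE 0.33). Both are cytokines, and both lay near the negative probe, which read 10.8 to 16.04. Of 26 p53 targets and DNA damage genes, 6 lay above and 20 below 0, with a median of -0.09, while 13 lay above and 13 below 0 over p16 low AOIs alone and 12 above and 14 below 0 in edgeR. Of 31 genes of the interferon response and antigen presentation 14 lay above and 17 below 0, with a median of -0.05. None of the members of these lists was called.

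Markers of the other cell types that a CA1 area can hold gave no call either. Of 18 astrocyte markers, 14 lay above 0, with a median of 0.11, and Gfap, the filament protein of reactive astrocytes, differed by 0.31 (SE 0.21). That median was -0.05 without ctrl mouse 1175, and over p16 high AOIs alone 9 markers lay above and 9 below 0. The summed astrocyte signal ran from 1293 to 1711 in CSS mice, with a median of 1395. In ctrl mice it ran from 951 to 1804, with a median of 1475. Of 17 microglia markers, 5 lay above 0, with a median of -0.09, and Ctss, a lysosomal protease, differed by -0.43 (SE 0.22). Of 15 endothelial markers, 3 lay above 0, with a median of -0.25. Tek, the receptor of angiopoietins, averaged 9.74 in CSS mice and 15.4 in ctrl mice, and Cldn5, the tight junction protein of brain vessels, averaged 27.5 in CSS mice and 34.7 in ctrl mice. Their summed signal was 254 to 305 in CSS mice and 299 to 342 in ctrl mice, and the list median stayed below 0 in all 24 other settings, between -0.37 and -0.07. Only 3 of the 15 markers had a mean signal at least 2 times the negative probe. Medians were -0.06 for 12 mural cell markers, -0.05 for 8 markers of oligodendrocyte precursors, -0.11 for the choroid plexus, and -0.55 for the 2 measured erythroid genes.

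Neuronal markers gave no call. The 12 CA1 pyramidal markers had a median of -0.02, with 5 above 0, but -0.18 with 1 above 0 without ctrl mouse 1175, and 0.14 with 8 above 0 without ctrl mouse 1151. Their summed signal was 2686 to 3453 in CSS mice and 1935 to 3780 in ctrl mice. Medians were -0.04 for 11 CA3 markers, -0.21 for 10 dentate granule cell markers, -0.05 for 10 cortical layer markers and -0.06 for 17 markers of inhibitory neurons. Of the granule cell markers, none had a mean signal at least 2 times the negative probe. Of the markers of inhibitory neurons, 7 lay above and 10 below 0. Gad1, which makes GABA, differed by 0.29 (SE 0.18) and Pvalb, the calcium buffer of fast-spiking interneurons, by 0.32 (SE 0.22). Pvalb differed by -0.11 over p16 high AOIs alone and by 0.79 over p16 low AOIs alone. Dlx2, of the same list, differed by -0.44 (SE 0.27).

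Synaptic genes gave no call, and their medians moved with single ctrl mice. The median was -0.05 over 28 postsynaptic density genes, with 7 above 0, and their differences ran from -0.22 to 0.15. It was -0.01 over 29 genes of the presynaptic vesicle cycle, which ran from -0.28 to 0.20, and -0.02 over 13 subunits of the GABA-A receptor, which ran from -0.23 to 0.10. Without ctrl mouse 1175, which had the lowest signal over background, these medians were -0.23, -0.19 and -0.19 in that order, and without ctrl mouse 1151 they were 0.07, 0.11 and 0.01. Of 16 AMPA, NMDA and kainate receptor subunits, 4 lay above 0, with a median of -0.09. Grin3a, an NMDA receptor subunit that lowers calcium entry, read 17.95 at the lowest, 30.5 at the median and 34.7 at the highest in CSS mice, against 30.5, 36.0, 32.5 and 51.4 in ctrl mice. Its difference was -0.45 (SE 0.22, 95% interval -0.88 to -0.01), and the groups overlapped. The median was -0.06 over 24 voltage-gated potassium channels, with Kcnq3, a subunit of the M current, at -0.32 (SE 0.18). Without ctrl mouse 1175 the median was -0.22 for the glutamate receptor subunits and -0.20 for the potassium channels, and without ctrl mouse 1151 it was 0.01 and 0.06.

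Of 30 receptors for monoamines and acetylcholine, 10 lay above 0, with a median of -0.13. Of 10 neurotrophins and receptors, 7 lay above 0, with a median of 0.02, and Ngfr, the low-affinity neurotrophin receptor, averaged 9.30 in CSS mice and 14.6 in ctrl mice, near the negative probe (log2 difference -0.60, SE 0.30). Of 18 neuropeptides, 7 lay above 0, with a median of -0.02. Penk, the precursor of enkephalins, read 79.2 at the lowest, 146 at the median and 207 at the highest in CSS mice, against 187, 162, 117 and 335 in ctrl mice, and the ctrl mice alone spanned most of that range.

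Genes of basic cell functions gave no call. The median was 0.01 over 73 genes of oxidative phosphorylation, of which 44 lay above and 29 below 0, between -0.26 and 0.34. Of 76 cytosolic ribosomal proteins, 37 lay above and 39 below 0, between -0.27 and 0.19. The median of the oxidative phosphorylation genes was -0.15 without ctrl mouse 1175 and 0.13 without ctrl mouse 1151, and that of the ribosomal proteins was -0.18 and 0.11 without the same mice. Medians were 0.03 for 27 genes of heat shock and protein folding (-0.19 without ctrl mice 1175 and 1182), -0.04 for 23 genes of the extracellular matrix and perineuronal net, and -0.01 for 15 genes of amyloid, tau and apolipoproteins. Of 19 circadian clock genes, 11 lay above 0, with a median of 0.10. Nr1d1, a repressor of the clock, averaged 126 in CSS mice and 99.8 in ctrl mice (0.33, SE 0.18), and Tef and Dbp, both output factors of the clock, differed by 0.31 (SE 0.18) and 0.21 (SE 0.18). Hlf, of the same list, went the other way, at -0.34 (SE 0.21), and stayed below 0 in all 24 other settings. The time of day of tissue collection was not stated in those sources that were used, and the clock median was -0.10 without ctrl mice 1175 and 1182.

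**Figure D4:**
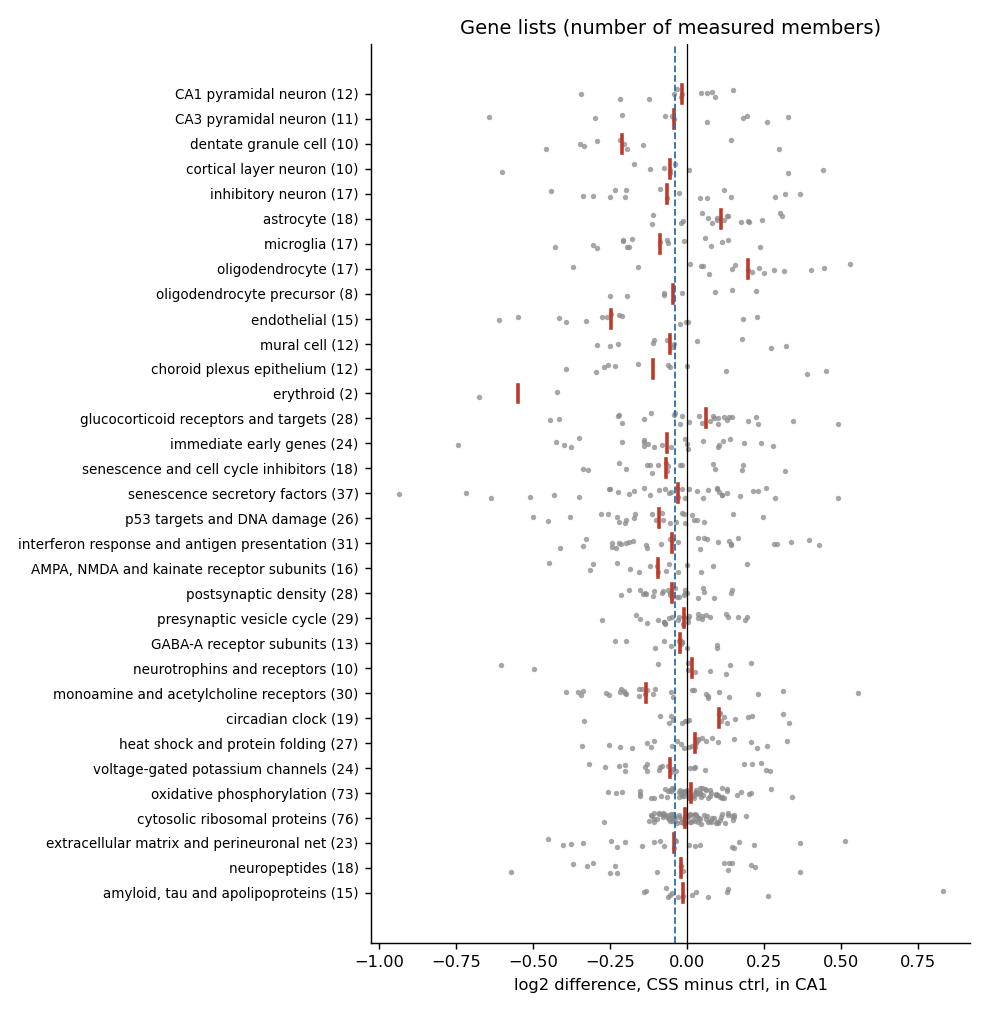
Log2 difference (CSS minus ctrl) in CA1 of every measured member of 33 gene lists, 1 grey point per gene, with the list median as a red bar. The dashed line is the median of all genes, -0.04, and the oligodendrocyte median, 0.20, and the endothelial median, -0.25, lie on opposite sides of it.

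Over all lists together, 701 different genes were measured and limma called 0. At an unadjusted p under 0.05, 3 were higher in CSS mice (0.428%, beside 0.832% of all genes) and 8 were lower (1.14%, beside 2.01% of all genes). Ptgds and Olig1 were among the 3, and the 8 were Npas4, Il15, Il6, Rspo1, Grin3a, Ngfr, Coch, which encodes a protein of the extracellular matrix, and Alas2, the heme synthesis enzyme of erythroid cells. Of the 8, all but Npas4 and Grin3a had a mean signal under 2 times the negative probe. In 1 of the 701, Rspo1, a secreted Wnt agonist, every CSS mouse lay below every ctrl mouse, at 8.38 to 14.5 in CSS mice against 15.2 to 22.1 in ctrl mice, near the negative probe. Over all 19962 genes this held in 67 (0.336%). The reverse order held in 0 of the 701, beside 39 of all genes (0.195%).

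The 20 genes with the largest moderated t values among those at least 2 times the negative probe were 10 with positive differences, from 0.45 to 1.07, and 10 with negative ones, from -0.89 to -0.50. That minimum was set on the mean of both groups together, so a gene could pass through the group where it was high. Averaged over mice on the log2 scale, Tsr3 read 31.8 in CSS mice and 19.5 in ctrl mice, and C2cd4b 16.2 and 30.9. Tcirg1 passed through 1 AOI. In 1 of the 20, Kcnt2, the groups did not overlap. Over all 19962 genes every CSS mouse lay above every ctrl mouse in 39 (0.195%), and the 20 were chosen on their t values. Kcnt2, a potassium channel that sodium opens, read 32.5 at the lowest, 36.7 at the median and 53.1 at the highest in CSS mice, against 32.0, 32.2, 26.1 and 19.1 in ctrl mice. The groups touched at CSS mouse 1169, at 32.5, and ctrl mouse 1168, at 32.2, and the difference was 0.49 (SE 0.20). Tsr3, an enzyme that modifies ribosomal RNA, read 20.1 at the lowest, 32.6 at the median and 45.3 at the highest in CSS mice, against 16.1, 21.2, 19.4 and 21.7 in ctrl mice (0.68, SE 0.22). Slc39a11, a zinc transporter, read 24.8 to 49.1 in CSS mice, against 20.5 to 25.2 in ctrl mice (0.59, SE 0.21). Serpine2, a secreted inhibitor of thrombin, read 49.0 to 66.5 in CSS mice, against 33.5 to 52.4 in ctrl mice (0.45, SE 0.18), and Mib2, a ubiquitin ligase, read 60.4 to 98.8 in CSS mice, against 42.6 to 71.4 in ctrl mice (0.48, SE 0.19). The others with positive differences were Gpr143, Riox1, 2610301B20Rik, Ptgds and Tcirg1.

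Tcirg1, a subunit of the proton pump of acid organelles, had the largest positive difference of the 20, 1.07 (SE 0.46), and it came from a single AOI. CSS mouse 1170 read 455 after centring, and the other CSS mice read 11.1 to 21.7, against 14.3, 16.5, 17.96 and 6.07 in ctrl mice. Its p16 low AOI held 206 counts, a signal of 568, while the other 89 AOIs of the series read 33.1 at most, with a median of 16.7 over all AOIs. Without that mouse the difference was 0.23.

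The most negative of the 20 differences were those of C2cd4b, a nuclear protein induced by cytokines, at -0.89 (SE 0.32), and Tbc1d20, a regulator of the small GTPase Rab1, at -0.80 (SE 0.29). C2cd4b read 2.49 at the lowest, 20.7 at the median and 36.6 at the highest in CSS mice, against 33.5, 29.6, 29.0 and 31.6 in ctrl mice, and its lowest value came from the single AOI of CSS mouse 1169. Tbc1d20 read 4.56 at the lowest, 25.8 at the median and 34.7 at the highest in CSS mice, against 40.4, 33.6, 26.6 and 33.9 in ctrl mice, with mouse 1169 again the lowest. Golph3l, a Golgi protein, read 16.8 to 32.0 in CSS mice, against 25.6 to 47.2 in ctrl mice (-0.64, SE 0.22). Pxdn, a peroxidase that cross-links collagen IV, read 31.6 to 48.9 in CSS mice, against 44.5 to 67.8 in ctrl mice (-0.50, SE 0.19). Npas4, described above, and Plekhm3, Pcdhgb4, Tbpl1, Mfsd12 and Palmd, between -0.66 and -0.56, completed the 10. The CSS and ctrl ranges overlapped in all of the 20 but Kcnt2.

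Of the 3 genes that edgeR called, Gm11596 and Slc13a5 were chosen for mention after their values were seen. Gm11596, a predicted gene, differed by -1.08 in edgeR (adjusted p = 2.35e-07) and by -0.17 in limma (SE 0.25). The p16 high AOI of ctrl mouse 1168 held 232 counts of it, a signal of 269, and no other CA1 AOI exceeded 66.2. Slc13a5, a citrate transporter, differed by 1.31 in edgeR (adjusted p = 0.00369) and by 0.61 in limma (SE 0.32). The p16 low AOI of CSS mouse 1157 held 71 counts of it, a signal of 92.2, and no other exceeded 31.5. Leaving out the mouse concerned raised the edgeR adjusted p of each to 1, and Slc13a5 was also not called without ctrl mouse 1151 or 1168.

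The stress difference in CA1 was set against that in the other areas of the same mice. These gave 18 AOIs of CA3, 19 of motor cortex and 19 of somatosensory cortex. In CA3, CSS mouse 1163 had p16 high alone and ctrl mouse 1182 had p16 low alone. CSS mouse 1169 had p16 high alone in motor cortex, and CSS mouse 1163 had p16 low alone in somatosensory cortex. For CA1 minus CA3, limma called 0 of 19962 genes (0%), with a lowest adjusted p of 0.997, and 340 genes (1.7%) were higher and 410 (2.05%) lower at an unadjusted p under 0.05. For CA1 minus cortex, the mean of motor (MC) and somatosensory (SS) areas, it called 0 genes (0%), with a lowest adjusted p of 0.984, and 263 (1.32%) were higher and 622 (3.12%) lower. Single ctrl mice moved these counts, with 206 genes higher for CA1 minus CA3 without 1182 and 342 lower for CA1 minus cortex without 1151, and quantile normalization gave 476 higher and 431 lower for CA1 minus cortex. No difference between CSS and ctrl mice was thus shown to be particular to CA1.

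Npas4 differed by -0.75 (SE 0.20) in CA1, by -0.34 (SE 0.21) in CA3 and by -0.44 (SE 0.12) in cortex, values that share their mice. CA1 minus CA3 was -0.40 (SE 0.24) and CA1 minus cortex -0.30 (SE 0.21) for this gene. Ptgds differed by 0.83 (SE 0.25) in CA1, by 0.91 (SE 0.21) in CA3 and by 0.18 (SE 0.16) in cortex, and CA1 minus cortex was 0.66 (SE 0.39). Tsr3 differed by 0.68 (SE 0.22) in CA1, by -0.04 (SE 0.20) in CA3 and by 0.06 (SE 0.13) in cortex. Slc39a11 differed by 0.59 (SE 0.21) in CA1, by -0.16 (SE 0.21) in CA3 and by 0.02 (SE 0.12) in cortex. Fkbp5 was among the 3 genes, of those at least 2 times the negative probe, with the highest t for CA1 minus cortex. It differed by 0.34 (SE 0.20) in CA1, by 0.29 (SE 0.21) in CA3 and by -0.18 (SE 0.14) in cortex, and CA1 minus cortex was 0.52 (SE 0.17, limma adjusted p = 0.984). Its CA1 level exceeded its cortex level by 1.20 in CSS mice and by 0.68 in ctrl mice on the log2 scale.

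**Figure D5:**
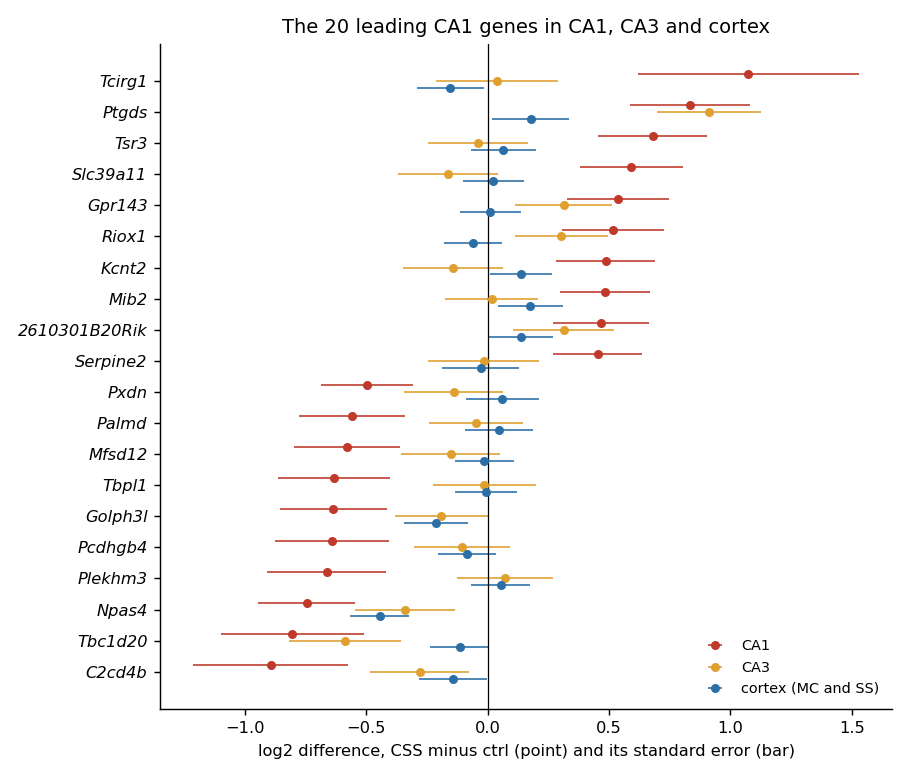
Log2 difference (CSS minus ctrl, point) with its standard error (bar) of the 20 leading CA1 genes in CA1, CA3 and cortex. The genes were chosen on their CA1 values, so larger differences there are part of the choice, and Ptgds, at 0.83 in CA1 and 0.91 in CA3, and Npas4, at -0.75 in CA1 and -0.44 in cortex, are shown beside them.

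The other leading genes of the area contrasts, of the same minimum signal, did not pass either. For CA1 minus CA3, Ccdc88a, an actin-binding protein, was 0.59 (SE 0.19), Glt8d2, a putative glycosyltransferase, 0.71 (SE 0.24) and Recql5, a DNA helicase, 0.55 (SE 0.20). On the other side, Fbn1, the fibrillin of microfibrils, was -1.07 (SE 0.28), Smim22, a small membrane protein, -1.05 (SE 0.28) and Tmcc3, a membrane protein, -0.72 (SE 0.19). For CA1 minus cortex, Igfbp4, which binds insulin-like growth factors, was 0.46 (SE 0.13) and Ncbp2, which binds the mRNA cap, 0.54 (SE 0.17). Zfp608, a zinc finger protein, was -0.57 (SE 0.16), Tpst1, which sulfates tyrosines, -0.76 (SE 0.23) and Chrna5, a nicotinic receptor subunit, -0.61 (SE 0.19).

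Whether the p16 high minus p16 low difference in CA1 depended on stress was tested in the 8 mice with both AOIs, 4 CSS and 4 ctrl. The Cdkn2a signal did not follow the p16 labels in every mouse. It was higher in the p16 high than in the p16 low AOI in 3 of 4 CSS mice and 2 of 4 ctrl mice. It was lower in CSS mouse 1157 (17.3 against 22.1) and in ctrl mice 1168 (13.9 against 23.4) and 1151 (17.3 against 30.9). Cdkn2a had a mean signal of 21.1, under 2 times the negative probe, and 3 to 24 counts per AOI. In the p16 high AOI of ctrl mouse 1168 the negative probe read 13.3. So few counts, of a signal for the whole gene, cannot tell whether the p16 transcript and the label disagree. limma called 0 of 19962 genes (0%), with a lowest adjusted p of 0.991, and 488 genes (2.44%) were higher and 392 (1.96%) lower at an unadjusted p under 0.05. Ptgds was higher in the p16 high than in the p16 low AOI of all 4 CSS mice, at 78.1 against 53.9, 214 against 106, 164 against 52.0 and 110 against 29.4. In ctrl mice it was at 28.4 against 19.1, 27.9 against 38.6, 50.4 against 61.4 and 63.0 against 82.8, higher in 1 of 4. The stress dependence was 1.40 (SE 0.43, limma adjusted p = 0.991). Npas4 had a stress dependence of -0.41 (SE 0.29), and Cdkn2a of 0.18 (SE 0.48).

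The largest such values by t among genes at least 2 times the negative probe were C2cd4b at 1.38 (SE 0.35), Rif1, a protein of DNA replication timing and repair, at 1.05 (SE 0.29), and Sfmbt1, a chromatin protein, at 0.91 (SE 0.27). On the other side stood Atxn1l, a partner of ataxin, at -1.04 (SE 0.31), and Sgce, a sarcoglycan, at -0.99 (SE 0.30). For C2cd4b the p16 high AOI exceeded the p16 low AOI by 0.99 in CSS mice, in 4 of 4, and by -0.39 in ctrl mice, where it was higher in 1 of 4.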

How the data were processed

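The authors deposited 1 table of probe signals for 19962 genes and 1 negative probe in 90 AOIs, in which all AOIs shared a median signal of 22.067, as the values show. Per the submitters' processing notes the genome build was mm10, and tools for reads were not stated in those sources that were used. Each value was a whole count times a factor of its AOI, so counts were recovered by division. In the CA1 AOIs at least 99.985% came out within 0.01 of a whole number, and 3 genes did not. Of the genes, 19822 (99.3%) matched RefSeq.

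The mouse was the replicate, since most mice gave 2 CA1 AOIs. Log2(signal + 1) was centred within each p16 label on the midpoint of the CSS and ctrl means and averaged per mouse, and signals per mouse are given back on the linear scale. Nothing in the labels says more about how the mice were housed or batched. All genes were fitted with limma 3.58.1 in R 4.3.3 (lmFit, eBayes with trend), 2-sided, with Benjamini-Hochberg adjustment, called under 0.05. Fold changes on this scale understate the change of genes of low signal. Area contrasts used the difference within each mouse. edgeR 4.0.16 (TMM, quasi-likelihood) on recovered counts was an alternative. The code was tested on simulated data.

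The genes named were 7 set ones, the 10 highest and 10 lowest moderated t values among genes at least 2 times the negative probe, up to 4 members of each list with the smallest p, and, at that same minimum signal, the 3 highest and 3 lowest t of each other contrast. The areas compared and the 33 gene lists (13 of cell markers, 20 of programmes) were chosen with earlier results of these data known. Some genes that these rules name are not reported here. Other settings are in the closing section. Promoters are those of RefSeq on GRCm38.p6.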

Additional observations from a re-analysis of the deposited data

Results flagged for a closer look

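In 306 groups of mice (151 genes and 2 quality measures, CSS and ctrl apart), the highest or lowest mouse was set against the rest of its group, and 14 stood apart. Chance gives about 1 in 20. CSS mouse 1170, which had 1 CA1 AOI, gave 6 of the 14, while CSS mouse 1169, which also had 1, was not among the mice flagged. For mouse 1170 they were Tcirg1 at 455, with the nearest CSS mouse at 21.7, Olig1 at 69.6 (nearest 37.9), Kcnt2 at 53.1 (38.6) and Mal at 28.3 (17.1). The others were Plau, a protease that activates plasminogen, at 34.0 (17.8), and Ndufs4, a subunit of respiratory complex I, at 95.3 (73.3). Without CSS mouse 1170 the difference between CSS and ctrl mice was 0.23 for Tcirg1 and 0.25 for Olig1 on the log2 scale. CSS mouse 1162 stood apart for Gphn, the scaffold of inhibitory synapses, at 110 (86.2), and for Atf4, a factor of the stress response of protein synthesis, at 144 (114). CSS mouse 1163 stood apart for Cdkn1a at 11.8 (18.5).

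Among ctrl mice, 1182 stood apart for Rspo1 at 22.1 (15.99), for Folr1, a folate receptor, at 6.15 (11.4), and for its count per AOI, 354684 (743690). Ifit1, an interferon-induced gene, was highest in ctrl mouse 1175 at 18.7, where the other ctrl mice lay close together up to 17.7. Slc17a6, a vesicular glutamate transporter, was lowest in ctrl mouse 1168 at 17.3 (20.3). Causes were not tested.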

How the results depend on the processing

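limma called 0 genes for CSS against ctrl in CA1 under all 23 other limma settings, among them log2(signal + 10), quantile normalization, 75th percentile scaling, each p16 label alone, and each mouse left out. With the mouse as a random replicate block over all 18 AOIs (correlation 0.20), 1 of those settings, limma had 134 higher and 346 lower at an unadjusted p under 0.05. Deviations of the 2 AOIs of a mouse correlated at 0.0273 to 0.36. edgeR called 3 genes, and 1 to 5 with 1 mouse left out, a check added after seeing the data along with those without shallow AOIs and without ctrl mice 1175 and 1182, which gave 0 in limma. limma also called 0 genes in the 14 other settings run for each area contrast and the 12 run for the p16 dependence. Over the single mice left out, limma had 82 to 241 genes higher and 279 to 816 lower at an unadjusted p under 0.05. Of 3574 differences of 151 named genes over 24 settings, 53 changed sign, in 33 genes, none of them among the 20 leading ones. Those 20 were chosen for large t values in these same mice, so a steady sign is part of that choice. No paired analysis was possible because CSS and ctrl are different mice. Depth limits genes of low signal most.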
